A study of Mus musculus with 13 samples.

Results

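Plasma cell tumours that carried a MYC transgene together with a mutant Nras allele (VQ) were compared with plasma cells that carried the MYC transgene alone (V). The comparison takes 8 of the 13 bone marrow RNA libraries of the series, all those with either label: 5 VQ libraries from 3 transplanted lines and 3 V libraries. The VQ genotype is given as V{kappa}*MYC with Nras LSL Q61R/+ and IgG1-Cre, the cells being taken from recipient mice. D1 and D5 are each represented by 2 recipients and D4 by 1 recipient, so the line was the unit of the comparison. The V genotype is V{kappa}*MYC with IgG1-Cre and no Nras allele, and these cells are not labelled as coming from recipients. Genotype and passage through a recipient therefore cannot be told apart in the comparison of VQ with V. All of these mice are of the C57/BL6 background, and every library was made from 50000 sorted cells labelled CD138+ B220- and CD45.2+. Beside these groups, the series holds 2 libraries from recipients of the MYC tumour line tVk12653, used for comparison, mainly at the end, and 3 wild-type libraries. Each VQ line stands for a single donor tumour, tVk12653 is 1 line, and IgG1-Cre recombines the Nras allele in germinal centre B cells and their progeny.

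MYC is a transcription factor that drives growth genes, among them those for ribosomes, nucleotides and the cell cycle, and its activation is a recurrent step in multiple myeloma, the cancer of plasma cells. NRAS is a small GTPase that passes growth factor signals through RAF, MEK and ERK kinases, and codon 61 mutations hold it in its active form. ERK signalling induces its own inhibitors, the Sprouty, Spred and DUSP proteins, and the ETV transcription factors, so these genes are commonly read as its output. Normal plasma cells secrete antibody, divide little, and have shut down most of the B cell receptor and antigen presentation programme of the B cells they came from.

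Library totals were 3401667 to 8512281 counts in VQ and 2096815 to 3257813 counts in V, so that 3 counts equal 0.326 to 1.49 CPM, the unit used throughout (counts scaled to a common library size). Recipients of the same line had Spearman correlations of 0.983 to 0.987, libraries of different VQ lines 0.832 to 0.900, V libraries among themselves 0.968 to 0.975, and VQ with V libraries 0.769 to 0.831. Sdc1, which encodes the sorted surface protein CD138, stood at 928, 842, 1424, 364 and 421 CPM in VQ and 935, 978 and 1123 CPM in V. VQ values are given throughout in the order D1 recipients 1 and 2, D4, and D5 recipients 1 and 2. The Sdc1 difference did not pass the test (log2 fold change -0.15 ± 0.40, adjusted p = 0.807). Ptprc, which encodes CD45, was at 273, 248, 1.68, 1.85 and 6.63 CPM in VQ and 585, 586 and 506 CPM in V. Its level in D4 and D5 lay far under that in D1 and in V, although all libraries are labelled CD45.2+. The arm difference did not pass (-2.62 ± 1.33, adjusted p = 0.164). Marker RNA of several other blood cell types was lower in VQ than in V. Neutrophil markers summed to 93.67 to 1388 CPM in VQ and 2037 to 4037 CPM in V (13 of 18 tested were lower, 3 fell without D1 recipient 2, 4 fell without V replicate 2, 6 fell without V replicate 3, 7 fell without V replicate 1, and 8 fell without line D4). T and NK cell markers summed to 4.49 to 14.0 CPM in VQ and 80.9 to 129.7 CPM in V (7 of 9 lower, 3 fell without V replicate 1, and 4 fell without V replicate 3 or line D4). B cell markers summed to 8.9 to 39.6 CPM in VQ and 285 to 395 CPM in V (7 of 12 lower). For basophil, eosinophil and mast cell markers the sums were 0.982 to 30.7 CPM in VQ and 365 to 829 CPM in V (2 of 4 lower, 1 fell without V replicate 1 or 3, line D4 or D5, D1 recipient 2, D5 recipient 1 or D5 recipient 2). Monocyte and dendritic cell sums overlapped. Monocyte markers summed to 16.3 to 157 CPM in VQ and 97.2 to 115 CPM in V (4 of 12 lower, 1 fell without V replicate 1, 2 or 3, and 9 fell without line D1). Dendritic cell markers summed to 319 to 928 CPM in VQ and 808 to 957 CPM in V (2 of 7 lower, 1 fell without V replicate 1 or 2 or line D1). Of 13 erythroid genes 1 was higher and 1 lower, of 5 stromal and endothelial genes 1 was higher and 1 lower, and of 3 megakaryocyte genes 0 passed in this edgeR fit, with 1 lower at an unadjusted p under 0.05 and by DESeq2. In bulk RNA, fewer cells of a type and less RNA per cell cannot be told apart. The part of these other cells in the gene results was not tested.

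**Figure D1:**
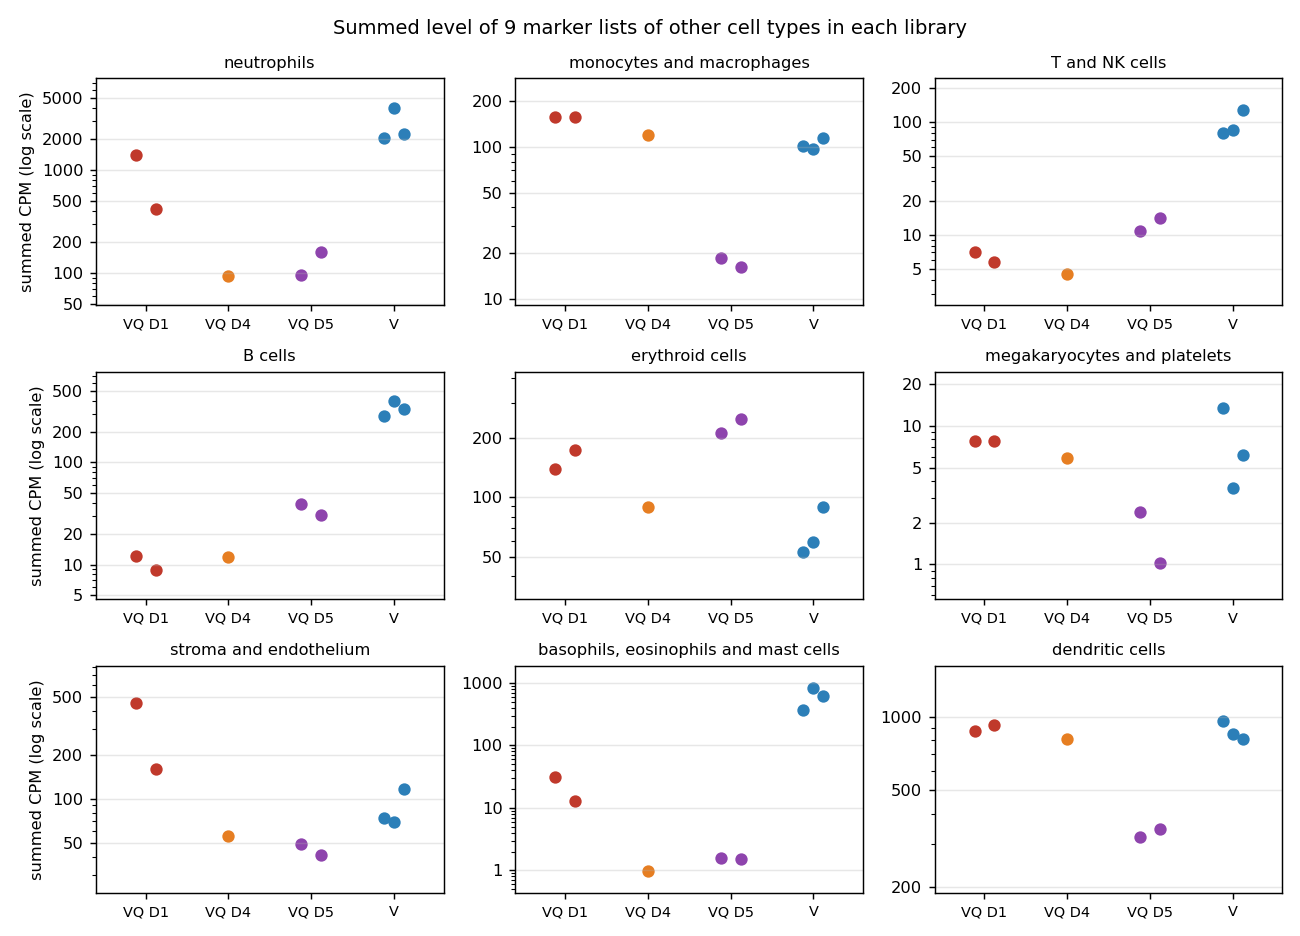
Summed CPM of 9 marker lists of other blood and stromal cells (log axis), with 1 point per library and the VQ lines D1, D4 and D5 left of V. Neutrophil, T and NK cell, B cell and basophil, eosinophil and mast cell sums of all 5 VQ libraries lie under those of the 3 V libraries, and monocyte and dendritic cell sums are low in D5.

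The engineered genes were read first. Myc, on chromosome 15 of GRCm38.p6 from 61985341 to 61990361, had 903 and 686 CPM in the D1 recipients, 1647 CPM in D4 and 1346 and 1663 CPM in the D5 recipients, against 309, 430.4 and 364 CPM in V. All VQ libraries exceeded all V libraries. The means were 1316 ± 457 CPM over the 3 VQ lines and 368 ± 60.7 CPM over the 3 V libraries (SD), and the difference passed in the edgeR quasi-likelihood test with Benjamini-Hochberg adjustment (log2 fold change 1.87 ± 0.33, adjusted p = 0.00379). The share of transgene reads, which are of human sequence, among these counts is unknown. Nras, on chromosome 3 of GRCm38.p6 from 103058285 to 103067914, had 45.6 and 41.7 CPM in the D1 recipients, 59.2 CPM in D4 and 132 and 163 CPM in the D5 recipients, against 35.7, 38.1 and 30.8 CPM in V. Each VQ library lay above each V library, but D1 lay close to V and D5 at the top (log2 fold change 1.32 ± 0.40, adjusted p = 0.0358), and D4 lay between them. Nras was not called without V replicate 1, 2 or 3 or line D5 (adjusted p up to 0.117). Counts per gene do not separate the mutant from the normal allele. Xist, the RNA of the inactive X chromosome, was at 40.2, 3.8, 8.13, 6.07 and 97.5 CPM in VQ and 2648, 1494 and 1880.4 CPM in V, a call (-6.25 ± 2.04, adjusted p = 0.0455) that was lost in 8 of the 10 fits that left out a library or a line (adjusted p up to 0.0954). The Y-linked Ddx3y was at 0 in every V library and at most 0.434 CPM in VQ. Among the 15 genes of the MYC and MAX network, 2 rose and 2 fell (13.3% each, near the 15.6% higher and 12.4% lower over all genes tested). In that network, 1 rose without V replicate 1, 2 or 3 or D5 recipient 2, 1 fell without V replicate 2 or 3, and 4 fell without line D5. Besides Myc, Mxi1, a MYC antagonist, rose (0.56 ± 0.17, adjusted p = 0.035). Mxd4, a MAX partner that represses MYC targets, fell (-0.99 ± 0.26, adjusted p = 0.0196), as did Mlx, a MAX-like partner of the glucose-sensing MLXIP factors (-0.92 ± 0.21, adjusted p = 0.0118). Mxd4 was not called without V replicate 2 or 3 (adjusted p up to 0.0664). Mxi1 was not called without V replicate 1, 2 or 3, line D1 or D5 recipient 2 (adjusted p up to 0.112).

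In the whole table, 1865 genes were higher in VQ and 1474 were lower of 11933 tested, which is 15.6% and 12.4% at an adjusted p under 0.05, with a median log2 fold change of 0.076 over all genes. Counts of genes called in each list are to be read against these shares. The directions were uneven in size, since 522 of the higher and 749 of the lower genes changed at least 4-fold. Without regard to the test, all VQ libraries lay above all V libraries for 2026 genes (17%) and below them for 2259 genes (18.9%), and 1630 of the genes called higher and 1434 of those called lower had no overlap. These counts depended on the small V arm. Without V replicate 3, 857 higher and 837 lower were left, against 1002 and 910 without V replicate 1 and 1140 and 978 without V replicate 2. In these fits the remaining 2 V libraries are assumed to vary as the other groups do. With the counts of the 20 most abundant genes removed the numbers were 1760 and 1526. With VQ and V fitted alone, without the spread estimate shared with the wild-type and tVk12653 units, they were 738 and 760. The 2 tVk12653 recipients, of 1 line, enter that shared estimate as separate units. The labels do not say that all libraries came from separate animals, and the p-values measure the spread between these lines and libraries.

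**Figure D2:**
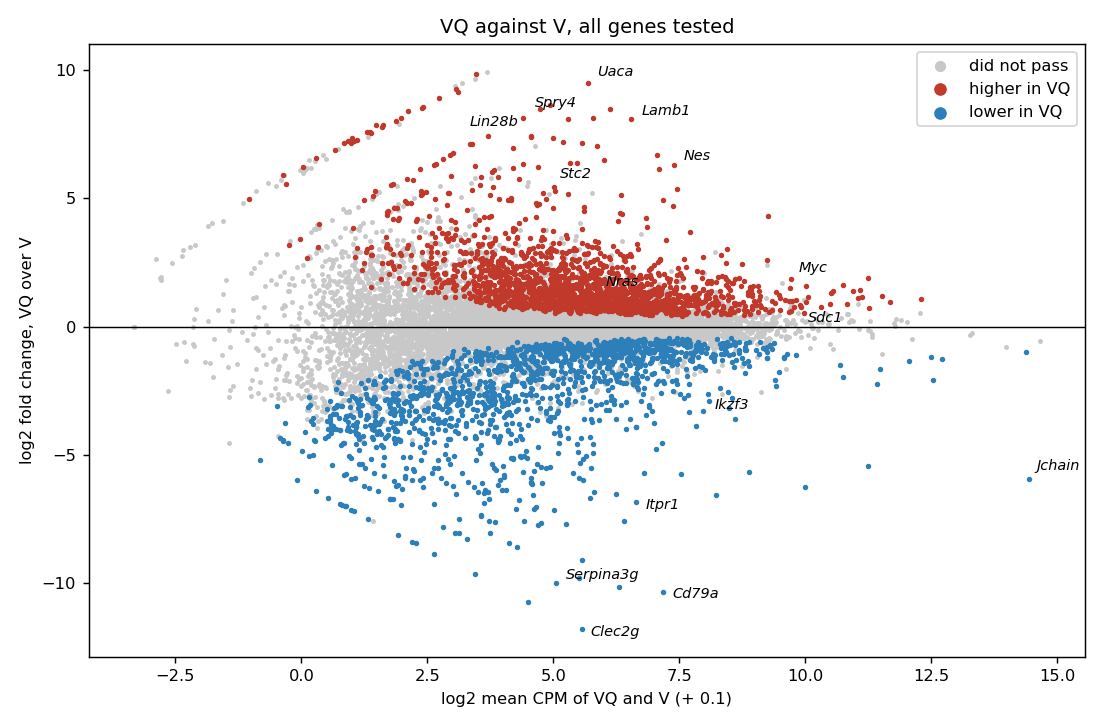
Log2 fold change of VQ over V against the log2 mean CPM of both arms, 1 point per gene tested. Genes that passed and were higher in VQ are red (1865), those lower are blue (1474) and the others grey, and the diagonal streaks are genes at or near 0 in an arm, whose fitted values depend on a small added count.

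Of the pathway lists, the one for building ribosomes had the highest share of members called. In it, 25 of 30 ribosome biogenesis genes rose and 0 fell, with a median log2 fold change of 1.55 against 0.076 over all genes, and 25 to 28 were called when any library or line was left out. Of 28 nucleotide and polyamine synthesis genes 16 rose and 0 fell, with a median of 1.28, although 6 rose without V replicate 3, 9 rose without V replicate 1, and 10 rose without V replicate 2. Without line D5, 2 fell. For these lists, as for the other lists below with a count of 0 in a direction, 0 genes had an unadjusted edgeR p under 0.05 in that direction and DESeq2 called 0 there, unless other counts are given. MYC with its partner MAX binds the sequence CACGTG, the E-box, a palindrome that reads alike on both strands. The RefSeq windows from 250 bases before to 50 bases after each gene's start were searched for it. It occurred in 7.15% of 32851 windows in the genome, and in 10.1% of those of the genes tested. It occurred in 12.1% (220 of 1814) of those of genes higher in VQ and in 8.66% (132 of 1524) of those of genes lower. Among the nucleotide list it occurred in 24.1% (7 of 29) and among the ribosome biogenesis list in 12.9% (4 of 31). In the mitosis and DNA replication lists below, where most genes rose, it occurred in 8.7% (2 of 23) and 10.7% (3 of 28). More genes fell than rose in the MHC class I, antibody secretion and B cell receptor lists. There it occurred in 16.7% (3 of 18), 15.4% (4 of 26) and 8.33% (2 of 24). Whether the E-box share goes with the rises of lists was not tested. A match is only a run of letters, and binding was not measured. Among growth and division genes that rose, 4 with the E-box before their start, chosen after their values were seen, are shown with the E-box in capitals and the bases around it, from RefSeq (GRCm38.p6), 5′ to 3′ along the gene's strand:
Atic (GRCm38.p6 chr1:71557122-71557155, + strand): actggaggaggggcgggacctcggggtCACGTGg
Nop2 (GRCm38.p6 chr6:125131796-125131855, + strand): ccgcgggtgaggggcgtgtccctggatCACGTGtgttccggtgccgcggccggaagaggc
Impdh2 (GRCm38.p6 chr9:108560299-108560358, + strand): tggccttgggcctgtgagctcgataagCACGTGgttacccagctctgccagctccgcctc
Ttk (GRCm38.p6 chr9:83834617-83834676, + strand): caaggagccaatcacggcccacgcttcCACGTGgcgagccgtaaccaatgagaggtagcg

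Atic, which carries out the closing steps of purine ring synthesis, stood at 127, 160.4, 59.2, 158 and 160.3 CPM in VQ and 46.7, 38.8 and 31.8 CPM in V (log2 fold change 1.72 ± 0.38, adjusted p = 0.0101), without overlap. Nop2, a methyltransferase of ribosomal RNA, stood at 100, 139, 57.8, 182 and 189 CPM in VQ and 34.7, 40.6 and 36 CPM in V (1.8 ± 0.36, adjusted p = 0.0069), with D4 the lowest of the VQ lines. Impdh2, the enzyme that commits purines to GTP, stood at 22.6, 15.8, 15.4, 37 and 38.8 CPM in VQ and 7.44, 7.12 and 4.54 CPM in V (1.96 ± 0.48, adjusted p = 0.0155), without overlap. Impdh2 was not called without V replicate 3 (adjusted p of 0.0672). In the ribosome biogenesis list the largest rises were those of Nhp2, a small nucleolar ribonucleoprotein component, and Nop58, the core protein of the box C/D particles that guide RNA methylation. Nhp2 was at 81.9, 89, 75.7, 180.4 and 209.5 CPM in VQ and 18.4, 24.2 and 13.9 CPM in V (2.73 ± 0.41, adjusted p = 0.00186). Nop58 was at 298, 318, 325, 533 and 601 CPM in VQ and 93.8, 109.6 and 86.6 CPM in V (2.11 ± 0.26, adjusted p = 0.000744). In both, D1 and D4 lay close together and D5 stood above them, a pattern also seen in Nolc1, a nucleolar chaperone, at 384, 427, 278, 882 and 958 CPM in VQ and 129.5, 180.1 and 128 CPM in V (1.95 ± 0.39, adjusted p = 0.00678). Nop56, the partner of Nop58, rose (1.99 ± 0.43, adjusted p = 0.00893). The nucleolar protein Npm1 (1.86 ± 0.38, adjusted p = 0.00691) and the abundant nucleolin gene Ncl (1.9 ± 0.31, adjusted p = 0.00259) also rose. Genes of the list that did not pass were Fbl, Nop10, Ubtf, Tcof1 and Nop14. Counted beyond the lists, 60 of 75 genes for cytosolic ribosomal proteins rose and 0 fell (median 1.16), and 32 of 77 for mitochondrial ribosomal proteins rose and 0 fell (median 0.65).

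Within nucleotide synthesis the largest rise was that of Shmt1, the cytosolic enzyme that feeds serine carbon into folate, at 58.8, 76.7, 30.3, 182 and 181 CPM in VQ and 1.99, 7.83 and 2.92 CPM in V (4.52 ± 0.72, adjusted p = 0.0025). Rrm2, the regulatory subunit of ribonucleotide reductase, stood at 65.5, 107, 49.2, 314 and 361 CPM in VQ and 18.9, 53.4 and 28.5 CPM in V (2.33 ± 0.68, adjusted p = 0.0305), and D4 did not exceed V replicate 2. Dctpp1, a pyrophosphatase that clears non-canonical nucleotides, rose (2.24 ± 0.46, adjusted p = 0.00754), as did Srm, spermidine synthase (2.03 ± 0.35, adjusted p = 0.0033). Odc1, Cad and Tyms, which take part in polyamine and pyrimidine synthesis, were among the 12 that did not pass. Rrm2 was not called without V replicate 1 or 3 or line D5 (adjusted p up to 0.105).

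Of 21 ERK output genes tested, 9 rose (42.9%, against 15.6% over all genes) and 0 fell (1 lower at an unadjusted edgeR p under 0.05, 0 by DESeq2). The median log2 fold change was 2.59, and 6 were called without V replicate 1 and 11 without line D1. The lines were uneven, with medians of 0.72 in D1, 2.08 in D4 and 1.71 in D5 (2 CPM added). The list summed to 570.4, 358, 1093, 1802 and 1672 CPM in VQ and 298, 400.5 and 321 CPM in V, so D1 recipient 2 lay within V. Wild-type sums were 807, 634 and 421 CPM. For several of those that rose, V was near 0. Spry4, a feedback inhibitor of RAS to ERK signalling, stood at 97 and 70 CPM in the D1 recipients, 34.6 CPM in D4 and 193 and 227 CPM in the D5 recipients, against 0, 0.712 and 0.324 CPM in V. V held 3 counts in all, and Spry4 was 273-fold higher in VQ over summed counts, with a counting interval of 93.3 to 1324 and adjusted p = 0.00111. Spry1, another Sprouty, was at 9.97, 4.34, 21.6, 2.38 and 1.79 CPM in VQ and 0, 0 and 0 CPM in V. With 3 counts per V library as the floor, the rise was at least 8.73-fold (adjusted p = 0.0153). Etv4, an ETS transcription factor induced by ERK, was at 15.4, 6.84, 13.7, 34.9 and 43.6 CPM in VQ and 0.496, 0 and 0.324 CPM in V. Each VQ library lay above V, and Etv4 was 74.2-fold higher in VQ over summed counts, with a counting interval of 20.4 to 614 and adjusted p = 0.00317. Etv5, its paralogue, was at 64.4, 33, 73.8, 220.3 and 179 CPM in VQ and 9.43, 12.8 and 11.4 CPM in V (3.29 ± 0.54, adjusted p = 0.0028), highest in D5 and without overlap. Etv1, the third of this subfamily, differed between lines: both D1 recipients had none, D4 had 6.31 CPM and D5 had 57.6 and 52.8 CPM, with 1 count in V. It was 134-fold higher in VQ over summed counts, with a counting interval of 23.9 to 5298 and adjusted p = 0.0487. Etv1 was not called without V replicate 1, 2 or 3 or D5 recipient 2 (adjusted p up to 0.149), and it was not tested without line D4 or D5. Dusp6, the phosphatase that removes phosphate from ERK, was at 50.4, 28.8, 19.4, 245 and 147 CPM in VQ and 12.9, 12.5 and 11.4 CPM in V (2.85 ± 0.80, adjusted p = 0.0258). Spred2, a Sprouty-related inhibitor, rose (2.39 ± 0.41, adjusted p = 0.0034). So did Phlda1 (4.42 ± 0.73, adjusted p = 0.00296) and the ephrin receptor gene Epha2 (5.82 ± 1.39, adjusted p = 0.0142). Among those that did not pass were Dusp4, Dusp5, Fosl1 and Ccnd1, and Spred1, at 1.08, 0.326, 70, 158 and 169 CPM in VQ and 9.43, 6.41 and 7.46 CPM in V (3.4 ± 1.27, adjusted p = 0.0718), which was near 0 in D1 alone. Dusp6 was not called without V replicate 1, 2 or 3 (adjusted p up to 0.0887). Epha2 was not called without V replicate 1 or 3 (adjusted p up to 0.0594).

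Among components and regulators of the pathway, 3 of 30 tested rose and 9 fell (10% and 30%, against 15.6% and 12.4% over all genes). Their median was -0.08. With Nras, Hras rose (1.2 ± 0.26, adjusted p = 0.00976). Dab2ip, a RAS GTPase-activating protein, was at 46.4, 45.1, 70.4, 63.4 and 73.5 CPM in VQ and 13.4, 14.6 and 9.73 CPM in V (2.34 ± 0.34, adjusted p = 0.00158). Rras2, a RAS relative, was at 0.539, 0, 0, 0 and 0.255 CPM in VQ and 15.9, 30.6 and 31.1 CPM in V. It was 250.5-fold lower in VQ over summed counts, with a counting interval of 84.6 to 1224 and adjusted p = 0.000113. Rasal1, a GTPase-activating protein, fell (-2.64 ± 0.45, adjusted p = 0.0032). Rasgrp1, an activator of RAS in lymphocytes, was at 4.85, 4.67, 12.6, 3.43 and 5.1 CPM in VQ and 46.2, 19.2 and 23.4 CPM in V (-2.01 ± 0.59, adjusted p = 0.0301). Smaller falls were those of Map2k1 (MEK1) at -1.0 and Grb2 at -0.79, and 5 of the 30 fell without V replicate 1 or 3. Braf, Mapk3 and Nf1 did not pass. Rasgrp1 was not called without V replicate 1 or 3 or line D1 or D5 (adjusted p up to 0.112). Of 19 immediate early genes, which growth factors induce within minutes, 1 was higher and 2 were lower (5.26% and 10.5%, against 15.6% and 12.4% over all genes). Their median was -0.32. In the leave-outs, 1 fell without V replicate 1, 2 or 3, and 4 fell without line D4. Nr4a2, an orphan nuclear receptor, was at 13.5, 13.2, 16.4, 15.6 and 12.5 CPM in VQ and 3.47, 0 and 4.87 CPM in V (2.43 ± 0.80, adjusted p = 0.0475), a call lost in 8 of 10 leave-outs (adjusted p up to 0.104). Egr3 fell (-3.84 ± 1.04, adjusted p = 0.0254). Nr4a3 held 2 counts over all VQ libraries and 14 over V, and was 24.6-fold lower in VQ over summed counts, with a counting interval of 5.65 to 223 and adjusted p = 0.00997. Fos, Jun, Egr1 and Nr4a1 did not pass. Egr3 was not called without V replicate 1, 2 or 3 or line D1 or D5 (adjusted p up to 0.0835).

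**Figure D3:**
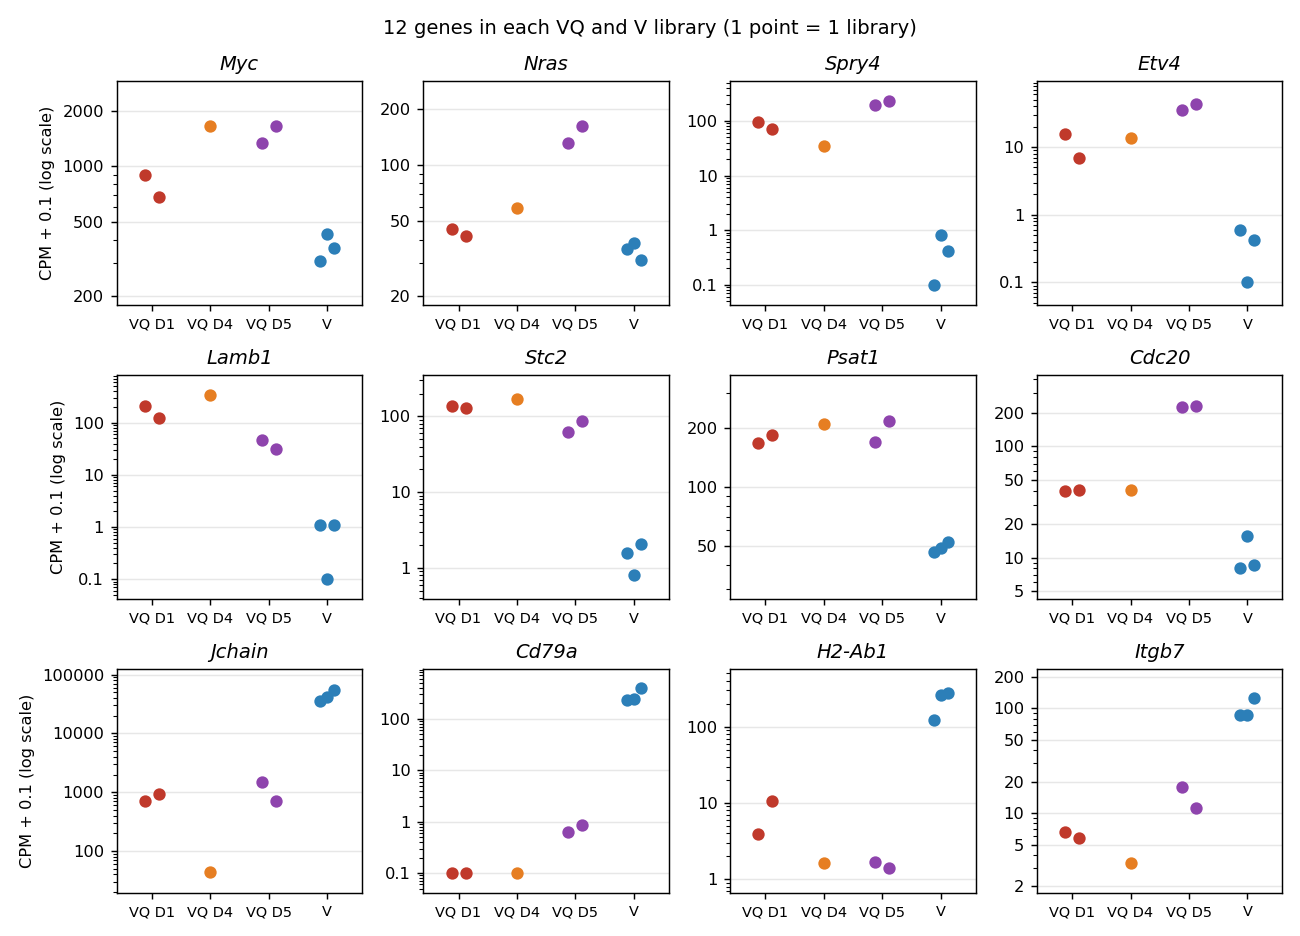
CPM + 0.1 (log axis) of 12 genes in each library, 1 point per library, the VQ lines D1, D4 and D5 left of V. Myc, Spry4, Etv4, Lamb1, Stc2, Psat1 and Cdc20 lie higher in every VQ library than in any V library, Jchain, Cd79a, H2-Ab1 and Itgb7 lower, and Nras in D1 lies just above V.

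Division genes rose together, most in D5 and least in D4. Of 28 mitosis genes 22 rose and 0 fell (median 2.29), and of 28 DNA replication genes 20 rose and 0 fell (median 1.83). The number of calls depended on the libraries. In the mitosis list 4 rose without V replicate 3, and 7 rose without V replicate 1, against 27 without line D4. In the replication list 4 rose without V replicate 1 or 3, and 12 rose without line D5, against 25 without line D4. Cdc20, the activator of the anaphase-promoting complex, stood at 39.9 and 40.8 CPM in the D1 recipients, 40.1 CPM in D4 and 226 and 232 CPM in the D5 recipients, against 7.94, 15.7 and 8.43 CPM in V (log2 fold change 3.34 ± 0.78, adjusted p = 0.0126). D1 and D4 lay at the same level, D5 several times higher, and none overlapped V. Ccnb1 (cyclin B1) was at 8.89, 11.8, 5.61, 35.4 and 33.2 CPM in VQ and 1.99, 1.42 and 1.95 CPM in V (3.31 ± 0.91, adjusted p = 0.0243). Ube2c, the ubiquitin-conjugating enzyme of the same complex, was at 36.4, 44.4, 53, 212 and 232 CPM in VQ and 7.94, 24.6 and 7.14 CPM in V (3.06 ± 0.77, adjusted p = 0.0178). Mybl2, a transcription factor of dividing cells, rose (3.08 ± 0.73, adjusted p = 0.0136). Ttk, the spindle checkpoint kinase shown above for its E-box, was at 10.2, 18.6, 6.73, 31.7 and 47.7 CPM in VQ and 6.95, 3.92 and 3.57 CPM in V (2.21 ± 0.66, adjusted p = 0.0328), D4 overlapping V. Mki67, the source of the Ki-67 antigen, was at 2589, 3432, 1274, 3649 and 3034 CPM in VQ and 557, 1419 and 684 CPM in V (1.62 ± 0.46, adjusted p = 0.027), with D4 under V replicate 2. Orc1, of the origin recognition complex, was at 9.7, 11.9, 6.31, 26.1 and 26.5 CPM in VQ and 1.49, 2.49 and 0.324 CPM in V (3.42 ± 0.83, adjusted p = 0.0148). Mcm10, which helps to start replication forks, was at 50.4, 84.4, 41.8, 179.9 and 185 CPM in VQ and 12.4, 15.7 and 8.43 CPM in V (3.1 ± 0.57, adjusted p = 0.00435), without overlap. Cdc6, the loader of the MCM helicase, was at 35.3, 61.4, 12.8, 133 and 117 CPM in VQ and 7.94, 13.5 and 8.76 CPM in V (2.73 ± 0.76, adjusted p = 0.0257), with D4 under V replicate 2. Rfc4, of the clamp loader, rose (2.69 ± 0.67, adjusted p = 0.0163). Cdc20 was not called without V replicate 1 or 3 (adjusted p up to 0.0565). Ccnb1 was not called without V replicate 1, 2 or 3 or line D5 (adjusted p up to 0.0828). Mybl2 was not called without V replicate 1 or 3 (adjusted p up to 0.0539). Ube2c was not called without V replicate 1 or 3 (adjusted p up to 0.0717). Ttk was not called without V replicate 1, 2 or 3, line D5 or D1 recipient 2 (adjusted p up to 0.116). Mki67 was not called without V replicate 1 or 3 or line D1 or D5 (adjusted p up to 0.1). Orc1 was not called without V replicate 1 or 3 (adjusted p up to 0.0557). Cdc6 was not called without V replicate 1, 2 or 3 or line D5 (adjusted p up to 0.0912). Rfc4 was not called without V replicate 1 or 3 (adjusted p up to 0.0694).

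Cell cycle regulators moved both ways. Of 19 D-type cyclins, RB family genes and CDK inhibitors, 4 rose and 4 fell (21.1% each, against 15.6% and 12.4% over all genes), whereas 1 rose without V replicate 1, 2 or 3, and 7 fell without line D4. E2f3, an E2F transcription factor, was at 90.6, 89.5, 55, 75.8 and 77.8 CPM in VQ and 24.8, 23.1 and 19.1 CPM in V (1.78 ± 0.23, adjusted p = 0.000877), without overlap, and its call held in every leave-out. Cdk4, the kinase partner of D cyclins, rose (1.06 ± 0.29, adjusted p = 0.0238), as did Rbl1, also called p107 (1.37 ± 0.45, adjusted p = 0.0462). The 4 that fell were Ccnd3 (-0.94), the p130 gene Rbl2 (-1.01), the p27 gene Cdkn1b (-0.83) and the p15 gene Cdkn2b (-4.19). Cdkn1a, the p53-induced inhibitor p21, was at 65.5, 84, 23.7, 22.7 and 18.6 CPM in VQ and 11.4, 15.3 and 4.22 CPM in V (2.05 ± 0.66, adjusted p = 0.0423), with D1 highest and all VQ libraries above V. Of 21 p53 genes, 8 rose and 2 fell (median 1.21, 4 rose without V replicate 3, 5 rose without V replicate 1 or 2, and 1 fell without V replicate 2 or 3). Phlda3, a p53-induced inhibitor of AKT, was at 17.3, 15.5, 6.59, 14.3 and 14.3 CPM in VQ and 0.496, 0 and 0 CPM in V. It was 104-fold higher in VQ over summed counts, with a counting interval of 18.5 to 4105 and adjusted p = 0.00271. Pmaip1, the death-promoting BH3 protein NOXA, was at 206, 208, 52.9, 172 and 166 CPM in VQ and 21.8, 21.7 and 30.5 CPM in V (2.6 ± 0.48, adjusted p = 0.00448), lowest in D4. Gtse1, which restrains p53 in dividing cells, rose (2.68 ± 0.51, adjusted p = 0.00538). Fas, the death receptor, was at 1.89, 1.3, 7.71, 2.91 and 2.55 CPM in VQ and 18.4, 22.4 and 31.1 CPM in V (-2.58 ± 0.55, adjusted p = 0.00824). Trp53 itself and Mdm2 did not pass. Of the 12 BCL2 family genes tested 2 rose and 1 fell (16.7% and 8.33%, against 15.6% and 12.4% over all genes). In the leave-outs 1 to 3 rose and 0 to 3 fell. Bax, the pore former of mitochondrial death, rose with Pmaip1 (1.27 ± 0.37, adjusted p = 0.0302). Bcl2, the survival protein, was at 101, 44.6, 8.13, 0.792 and 1.02 CPM in VQ and 201, 187 and 246 CPM in V (-3.11 ± 0.99, adjusted p = 0.0421), lowest in D5. Mcl1 did not pass. Ccnd3 was not called without V replicate 1, 2 or 3 (adjusted p up to 0.0638). Cdk4 was not called without V replicate 1, 2 or 3 (adjusted p up to 0.0917). Rbl1 was not called without V replicate 1, 2 or 3, line D1 or D5 or D1 recipient 2 (adjusted p up to 0.145). Cdkn1a was not called without V replicate 1, 2 or 3 or line D1 (adjusted p up to 0.155). Bcl2 was not called without V replicate 1, 2 or 3, line D4 or D1 recipient 2 (adjusted p up to 0.117). Bax was not called without V replicate 1, 2 or 3 or line D1 or D5 (adjusted p up to 0.114).

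Metabolic genes that passed were mostly higher in VQ. In the nuclear encoded respiratory chain 16 of 30 genes rose and 0 fell (median 0.67, 10 rose without V replicate 1 or 3), with list medians of 0.42 in D1, 0.76 in D4 and 0.54 in D5. Sdhd, an anchor of succinate dehydrogenase, was at 60.9, 69.9, 82.5, 67.9 and 81.7 CPM in VQ and 38.7, 30.6 and 25.9 CPM in V (1.29 ± 0.19, adjusted p = 0.0018), without overlap. Atp5g1, of the ATP synthase ring, rose (1.44 ± 0.31, adjusted p = 0.00925). Cyc1, or cytochrome c1 (1.21 ± 0.21, adjusted p = 0.0032), and Cox5a, of cytochrome oxidase (1.08 ± 0.27, adjusted p = 0.0156), rose as well. Glycolysis and glucose uptake gave 7 higher and 1 lower of 23 (30.4% and 4.35%, against 15.6% and 12.4% over all genes), with a median of 0.81. In the leave-outs, 4 rose without V replicate 2 or 3, 0 fell without V replicate 1, 2 or 3, line D4 or D1 recipient 2, and 3 fell without line D1. Slc16a1, the lactate transporter MCT1, stood at 78.2, 82.7, 79.9, 351 and 414 CPM in VQ and 13.9, 22.4 and 24.3 CPM in V (3.23 ± 0.68, adjusted p = 0.00845), even across D1 and D4 and several times higher in D5. Ldha, which makes lactate, was at 145, 169.7, 133, 273 and 347 CPM in VQ and 37.7, 56.6 and 35.7 CPM in V (2.28 ± 0.38, adjusted p = 0.00284). Eno1, or enolase, was at 60.9, 81.4, 34.8, 155 and 179 CPM in VQ and 21.8, 23.5 and 25.6 CPM in V (2.04 ± 0.49, adjusted p = 0.0149), while the regulatory enzyme gene Pfkfb4 fell (-1.66 ± 0.54, adjusted p = 0.046). Slc2a1 and Hk2, for glucose entry and its phosphorylation, did not pass. Cox5a was not called without V replicate 1 or 3 (adjusted p up to 0.0629). Eno1 was not called without V replicate 1, 2 or 3 (adjusted p up to 0.056). Pfkfb4 was not called without V replicate 1, 2 or 3, line D4 or D1 recipient 2 (adjusted p up to 0.133).

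In the list of ATF4 response and serine synthesis genes, 5 of 25 rose and 1 fell (20% and 4%, against 15.6% and 12.4% over all genes, with a median of 0.61). In the leave-outs, 3 rose without V replicate 3, 8 rose without line D1, 0 fell without V replicate 1, 2 or 3, line D1, D1 recipient 2 or D5 recipient 2, and 2 fell without line D4. Psat1, the aminotransferase of serine synthesis, was at 168, 183, 210.3, 170.4 and 216 CPM in VQ and 46.2, 48.8 and 52.5 CPM in V (log2 fold change 2.03 ± 0.25, adjusted p = 0.00081), alike in the 3 lines, and it held in every leave-out. Slc7a11, the cystine transporter, was at 37.2, 26, 164, 7.66 and 21.7 CPM in VQ and 11.4, 2.85 and 5.19 CPM in V (3.46 ± 0.91, adjusted p = 0.0209), with D4 highest and D5 recipient 1 under V replicate 1. Mthfd1l, of mitochondrial folate metabolism, rose (1.43 ± 0.36, adjusted p = 0.0173). Ddit3 (CHOP), a death factor of stressed cells, was at 32.6, 11.5, 27.5, 1.85 and 3.57 CPM in VQ and 55.6, 60.9 and 44.4 CPM in V (-1.72 ± 0.58, adjusted p = 0.0489), low in D5. Atf4, Asns, Phgdh and Trib3 did not pass. Of 26 cholesterol and fatty acid genes 7 rose and 1 fell (median 0.59, 3 rose without V replicate 1, 2 or 3, and 2 fell without line D4). Elovl6, which lengthens fatty acids, was at 18.1, 31.3, 32.8, 134 and 117 CPM in VQ and 2.98, 0.712 and 4.22 CPM in V (4.61 ± 0.77, adjusted p = 0.00295). Scd1, which puts the double bond into them, fell, at 5.12, 0.651, 0.561, 0 and 0.255 CPM in VQ and 91.3, 100 and 125 CPM in V (-6.67 ± 1.00, adjusted p = 0.00188). Proteasome and chaperone genes rose in 17 of 26 cases and fell in 0 (median 0.88, 12 without V replicate 3). Cct2, of the chaperonin that folds actin and tubulin, was at 557, 590.0, 660.5, 623 and 659.9 CPM in VQ and 203, 235 and 202 CPM in V (1.6 ± 0.13, adjusted p = 0.000125). Its level varied little among lines, whereas its partner Cct3, at 222, 246, 218, 637 and 697 CPM in VQ and 81.9, 99.3 and 77.2 CPM in V (2.19 ± 0.40, adjusted p = 0.00464), was highest in D5. Cct5 (1.56 ± 0.23, adjusted p = 0.00165) and the mitochondrial chaperone Hspd1 (2.03 ± 0.43, adjusted p = 0.00819) rose. Slc7a11 was not called without V replicate 2 or 3 (adjusted p up to 0.0807). Mthfd1l was not called without V replicate 1 or 3 (adjusted p up to 0.0654). Ddit3 was not called without V replicate 1, 2 or 3, line D1, D1 recipient 2 or D5 recipient 2 (adjusted p up to 0.137).

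Most genes of plasma cell identity and antibody secretion did not pass, and most of those that did were lower. Of 24 plasma cell transcription factors and surface proteins 1 rose and 7 fell (4.17% and 29.2%, against 15.6% and 12.4% over all genes). Their median was -0.37, and 0 rose without V replicate 1 or 3 and 4 fell without V replicate 3. Of 30 antibody assembly and secretion genes 2 rose and 6 fell (6.67% and 20%, against 15.6% and 12.4% over all genes, with a median of -0.12, 1 rose without V replicate 1, 2 or 3 or line D5, and 4 rose without line D1). Jchain, the joining chain of secreted IgM and IgA, lies on chromosome 5 of GRCm38.p6 from 88519809 to 88527897 and had 697 and 939.8 CPM in the D1 recipients, 44.5 CPM in D4 and 1504 and 723 CPM in the D5 recipients, against 35084, 41193 and 55164 CPM in V. All VQ libraries lay far under all V libraries, D4 lowest (log2 fold change -5.95 ± 1.00, adjusted p = 0.00316). Cd38, an ectoenzyme of plasma cells, was at 0.539, 0, 0, 2.38 and 0.766 CPM in VQ and 25.8, 22.1 and 37.3 CPM in V (-5.57 ± 0.91, adjusted p = 0.00342). Ikzf3 (Aiolos), a transcription factor that myeloma drugs degrade through cereblon, was at 38.5, 11.8, 64.2, 146 and 118 CPM in VQ and 448, 389 and 546 CPM in V (-2.62 ± 0.55, adjusted p = 0.00817), and its relative Ikzf1 (Ikaros) fell less (-0.63). Cd28, a costimulatory receptor of long-lived plasma cells, was at 73.9, 34.7, 29.3, 43.3 and 44.9 CPM in VQ and 111, 104 and 171 CPM in V (-1.64 ± 0.37, adjusted p = 0.0115). Slamf7, an antibody drug target in myeloma, fell (-1.17). Cd320, a receptor for vitamin B12 uptake, rose (1.27 ± 0.36, adjusted p = 0.0259). The plasma cell transcription factor genes Irf4, Prdm1 and Xbp1 did not pass, nor did Tnfrsf17 (BCMA), at 8.36, 2.82, 32.1, 58.4 and 83.4 CPM in VQ and 110.2, 126 and 136 CPM in V (-1.73 ± 0.71, adjusted p = 0.0946). In the secretory list Fkbp11, a prolyl isomerase of the endoplasmic reticulum, was at 269, 232, 801, 612 and 648 CPM in VQ and 79.4, 77.2 and 92.8 CPM in V (2.79 ± 0.36, adjusted p = 0.00103). Dnajb9, a cochaperone there, was at 96.5, 86.8, 110.4, 171 and 135 CPM in VQ and 319, 366 and 249 CPM in V (-1.35 ± 0.24, adjusted p = 0.00389). Txndc5, a disulphide isomerase, was at 1963, 886, 3487, 2132 and 2510.3 CPM in VQ and 5810.0, 5413 and 7037 CPM in V (-1.34 ± 0.36, adjusted p = 0.022), each without overlap. Hspa5 and Hsp90b1 did not pass, nor did Mzb1, a chaperone of antibody assembly, at 155, 127, 0.561, 383 and 333 CPM in VQ and 383, 565 and 514 CPM in V (-1.48 ± 1.15, adjusted p = 0.359), which was near 0 in D4 alone. Ikzf1 was not called without V replicate 1, 2 or 3, line D4 or D5 or D5 recipient 1 (adjusted p up to 0.15). Cd28 was not called without V replicate 3 (adjusted p of 0.0526). Cd320 was not called without V replicate 1 or 3 or line D5 (adjusted p up to 0.0913). Txndc5 was not called without V replicate 1 or 3 (adjusted p up to 0.0753).

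B cell receptor signalling was the pathway list with the most falls. In it, 16 of 26 fell and 0 rose, with a median of -1.67, and 14 to 17 were called in the leave-outs. Cd79a, the signalling chain of the receptor, had 0 and 0 CPM in the D1 recipients, 0 CPM in D4 and 0.528 and 0.766 CPM in the D5 recipients, against 233, 244 and 389 CPM in V. VQ was at or near 0 in every library (log2 fold change -10.35 ± 0.79, adjusted p = 0.000113). Blk, a tyrosine kinase of B cells, was at 0 in all VQ libraries and 38.7, 30.6 and 66.2 CPM in V, at least 76.7-fold lower (adjusted p = 0.000213). Prkcb, the protein kinase C of the pathway, was at 5.12, 2.71, 1.12, 0 and 1.53 CPM in VQ and 37.7, 54.5 and 57.4 CPM in V (-4.68 ± 0.60, adjusted p = 0.000922). Syk and Lyn, kinases found in many blood cells, fell by less. Syk was at 187, 192, 209, 183 and 146 CPM in VQ and 543, 606 and 581 CPM in V (-1.57 ± 0.14, adjusted p = 0.000203). Lyn was at 25.6, 24.6, 31.6, 16.9 and 15.8 CPM in VQ and 90.8, 95.4 and 136 CPM in V (-2.1 ± 0.30, adjusted p = 0.00145), both without overlap. Btk, Blnk and Vav1 did not pass. Cd22, Bank1 and Cr2 stand in the B cell marker list too. The defining genes of that list were also near 0 in VQ. Ms4a1 (CD20) was at 0, 0, 5.05, 0.264 and 0 CPM in VQ and 111, 209 and 130.1 CPM in V (-6.53 ± 1.18, adjusted p = 0.00549). Ebf1, a B cell transcription factor, was at 3.5, 1.95, 0.421, 0.264 and 0.255 CPM in VQ and 47.2, 34.2 and 37.3 CPM in V (-5.06 ± 0.69, adjusted p = 0.00123). Bank1, a B cell scaffold protein, was at 4.31, 3.8, 1.82, 4.49 and 0.766 CPM in VQ and 47.6, 28.1 and 50 CPM in V (-3.82 ± 0.47, adjusted p = 0.000773). The part of B cells in the V levels was not tested.

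Antigen presentation, NF-kB and interferon genes that passed were lower in VQ with 1 exception. The class I, NF-kB and interferon list medians lay lower in D4 and D5 than in D1. Of 14 MHC class II genes 5 fell and 0 rose (1 higher at an unadjusted edgeR p under 0.05, 0 by DESeq2; median -1.48; 1 rose without line D1 or D4, and 3 fell without V replicate 3), with B cell marker sums of 8.9 to 39.6 CPM in VQ and 285 to 395 CPM in V beside them. H2-Ab1, the class II beta chain, was at 3.77, 10.5, 1.54, 1.58 and 1.28 CPM in VQ and 121, 258 and 277 CPM in V (log2 fold change -5.69 ± 0.71, adjusted p = 0.000852). H2-Aa, the alpha chain, was at 3.77, 0.434, 0.14, 0 and 0.255 CPM in VQ and 25.3, 50.2 and 62.6 CPM in V (-6.06 ± 0.91, adjusted p = 0.00196). H2-Eb1, at 5.12, 2.82, 18.2, 0.528 and 0.51 CPM in VQ and 47.2, 104 and 118 CPM in V (-3.61 ± 0.89, adjusted p = 0.0161), was highest in D4 among the lines. H2-Ob, which tunes peptide loading, was at 3.77, 3.47, 0, 0 and 0 CPM in VQ and 17.4, 22.4 and 40.5 CPM in V (-4.26 ± 1.11, adjusted p = 0.0197). Ciita, the class II activator, did not pass, nor did Cd74, the invariant chain, at 3258, 2511, 2894, 3.96 and 11.2 CPM in VQ and 4468, 3402 and 4069 CPM in V (-1.06 ± 1.16, adjusted p = 0.522), which was near 0 in D5 alone. Of 19 MHC class I genes 4 fell (21.1%, against 12.4% over all genes) and 0 rose (1 higher at an unadjusted edgeR p under 0.05, 0 by DESeq2). In the leave-outs, 1 rose without line D4, 2 fell without V replicate 1 or 2, and 8 fell without line D1. B2m, the light chain of all class I molecules, was at 2287, 2473, 1202, 479 and 415 CPM in VQ and 5091, 4173 and 3933 CPM in V (-1.66 ± 0.48, adjusted p = 0.0283), with D5 lowest and no overlap. H2-Q4 (-1.32 ± 0.29, adjusted p = 0.0101), H2-T22 (-1.12 ± 0.23, adjusted p = 0.00764) and H2-Q6 (-1.08 ± 0.30, adjusted p = 0.0247) belong to a family of near-identical genes whose reads can be counted on one another. H2-K1 and H2-D1 did not pass. H2-Ob was not called without V replicate 3 (adjusted p of 0.0667). H2-Eb1 was not called without V replicate 3 (adjusted p of 0.0532). B2m was not called without V replicate 1, 2 or 3 or line D4 (adjusted p up to 0.0812). H2-Q6 was not called without V replicate 1 or 2 or line D4 (adjusted p up to 0.0874).

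Of 25 NF-kB factors and targets 7 fell and 0 rose (median -0.97), whereas 4 fell without V replicate 1, 2 or 3, and 14 fell without line D1. Nfkb2, the p100 precursor of the alternative pathway, was at 86.5, 59.4, 12.5, 9.77 and 8.68 CPM in VQ and 147, 133 and 149 CPM in V (-2.21 ± 0.66, adjusted p = 0.0327), which set D4 and D5 apart from D1. Map3k14 (NIK), the kinase that starts that pathway, was at 9.97, 7.38, 5.47, 8.19 and 6.38 CPM in VQ and 19.9, 28.1 and 22.1 CPM in V (-1.69 ± 0.23, adjusted p = 0.00123), alike in the 3 lines. Cd83, an activation marker, was 372-fold lower in VQ over summed counts, with a counting interval of 102 to 3094 and adjusted p = 0.000459. Bcl3, an atypical IkB protein, was at 14, 9.98, 3.23, 0.528 and 1.28 CPM in VQ and 33.3, 25.6 and 21.4 CPM in V (-2.31 ± 0.70, adjusted p = 0.0336). Rela, Nfkbia and Traf3 did not pass. Of 24 interferon-stimulated genes 7 fell and 1 rose (median -1.35, 0 rose without V replicate 1, 2 or 3 or line D1, 3 fell without V replicate 1, and 11 fell without line D1). Irf7, which amplifies the interferon response, was at 15.1, 10.3, 12.6, 2.11 and 3.83 CPM in VQ and 62, 47.3 and 32.8 CPM in V (-2.34 ± 0.49, adjusted p = 0.00816). Ifi27 was at 4.58, 4.78, 1.4, 0.792 and 0.51 CPM in VQ and 45.7, 44.1 and 26.6 CPM in V (-3.99 ± 0.61, adjusted p = 0.00207). Zbp1, a nucleic acid sensor, was at 49.9, 86.8, 45.2, 11.1 and 17.6 CPM in VQ and 255, 169.8 and 139 CPM in V (-2.01 ± 0.53, adjusted p = 0.0213). Ifih1, an RNA sensor, fell (-1.91 ± 0.62, adjusted p = 0.0453). Ifi44 was the member that rose, with 0 in V and 0.701 to 15.4 CPM in VQ. Isg15 and Mx1 did not pass. Nfkb2 was not called without V replicate 1, 2 or 3, line D4 or D1 recipient 2 (adjusted p up to 0.0812). Bcl3 was not called without V replicate 1, 2 or 3, line D4 or D1 recipient 2 (adjusted p up to 0.0926). Zbp1 was not called without V replicate 1 (adjusted p of 0.0717). Ifih1 was not called without V replicate 1, 2 or 3, D1 recipient 2 or D5 recipient 2 (adjusted p up to 0.119). Ifi44 was not called without V replicate 1, 2 or 3 (adjusted p up to 0.0734), and it was not tested without line D1 or D5.

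Receptors that guide plasma cells to their niches were lower where they passed, with 2 exceptions. Of 29 homing and adhesion receptors 14 fell and 2 rose, with a median of -1.30 that was nearly the same in D1 (-1.34), D4 (-1.26) and D5 (-1.30), although 1 rose without V replicate 1 or 3, 4 rose without line D5, 7 fell without V replicate 3, and 9 fell without V replicate 2. Itgb7, the gut-homing integrin chain, was at 6.47, 5.64, 3.23, 17.7 and 11 CPM in VQ and 85.9, 86.1 and 125 CPM in V (log2 fold change -3.6 ± 0.48, adjusted p = 0.00114), without overlap. Itgb3, an integrin of platelets and other cells, was at 3.77, 3.58, 0.701, 7.13 and 3.83 CPM in VQ and 52.6, 76.2 and 54.2 CPM in V (-4.13 ± 0.56, adjusted p = 0.00124). Ccr9, the chemokine receptor for the small intestine, was at 0.539, 0.326, 0.701, 0.528 and 0 CPM in VQ and 26.8, 20.3 and 43.1 CPM in V (-5.97 ± 0.51, adjusted p = 0.000174). Ncam1, the CD56 gene, was at 5.66, 0.651, 1.12, 0.264 and 0.255 CPM in VQ and 13.4, 22.8 and 10.4 CPM in V (-3.62 ± 0.65, adjusted p = 0.00388). Ccr10 also fell (-2.62), and Cxcr3 was 50.3-fold lower in VQ over summed counts, with a counting interval of 16.1 to 254 and adjusted p = 0.0117. Itga5, the fibronectin receptor chain, was at 66.6, 62.3, 64.6, 39.1 and 39.6 CPM in VQ and 12.4, 9.26 and 15.2 CPM in V (2.22 ± 0.26, adjusted p = 0.000568), and its partner Itgb1 rose less (0.69). Cxcr4, the receptor that holds plasma cells in the marrow, Itga4 and Cd44 did not pass. Ccr2, which fell, is also in the monocyte list, and Itgb2 is expressed by neutrophils too, whose markers summed to 93.67 to 1388 CPM in VQ and 2037 to 4037 CPM in V. The part of those cells was not tested. Ccr10 was not called without V replicate 2 or 3 or line D1 or D4 (adjusted p up to 0.102). Ccr2 was not called without V replicate 1, 2 or 3 (adjusted p up to 0.0741). Itgb1 was not called without V replicate 1 or 3 (adjusted p up to 0.0625). Itgb2 was not called without V replicate 3 (adjusted p of 0.0614).

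Among 16 laminins, collagens and matrix enzymes, 4 rose, laminin chains among them, and 2 fell (25% and 12.5%, against 15.6% and 12.4% over all genes), while 0 fell without D1 recipient 2, 1 fell without V replicate 1, and 6 fell without line D1. Lamb1, the beta chain of the common laminins, lies on chromosome 12 of GRCm38.p6 from 31265146 to 31329644 and had 208 and 124 CPM in the D1 recipients, 346 CPM in D4 and 46.2 and 31.1 CPM in the D5 recipients, against 0.993, 0 and 0.973 CPM in V. D4 was highest and D5 lowest among the lines, and V was near 0 (log2 fold change 8.09 ± 1.01, adjusted p = 0.0012). Lamb2 was at 73.9, 86.7, 139, 52.8 and 52.3 CPM in VQ and 22.8, 4.63 and 4.54 CPM in V (3.18 ± 0.72, adjusted p = 0.0111). Lamc1 rose (1.42 ± 0.28, adjusted p = 0.00623). Timp2, an inhibitor of matrix proteases, was at 3.5, 0.868, 0.28, 0 and 0.255 CPM in VQ and 6.45, 11.4 and 11 CPM in V (-3.62 ± 0.84, adjusted p = 0.0124). Of 15 immune checkpoint ligands 3 rose and 4 fell (20% and 26.7%, against 15.6% and 12.4%), while 1 rose without V replicate 1, 2 or 3. Cd276, which encodes B7-H3, was at 4.31, 3.58, 17, 65.5 and 47.5 CPM in VQ and 0.496, 0 and 0 CPM in V, above V in all lines and highest in D5. It was 172-fold higher in VQ over summed counts, with a counting interval of 30.8 to 6805 and adjusted p = 0.00614. Nectin2, a ligand of TIGIT, was at 24, 24.3, 16.1, 4.49 and 5.1 CPM in VQ and 3.97, 3.2 and 3.57 CPM in V (2.11 ± 0.53, adjusted p = 0.0165). Cd200, which restrains myeloid cells, was at 0 in all VQ libraries and 14.9, 12.8 and 36.7 CPM in V, at least 36.4-fold lower (adjusted p = 0.000535). Pdcd1lg2, the PD-L2 gene, was at 0.27, 0.109, 0.701, 0 and 0 CPM in VQ and 24.3, 24.9 and 24 CPM in V (-6.36 ± 0.77, adjusted p = 0.000691). Cd274 (PD-L1) and Cd47 did not pass. Timp2 was not called without D1 recipient 2 (adjusted p of 0.0507). Nectin2 was not called without V replicate 1, 2 or 3 (adjusted p up to 0.0621).

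Of 26 cytokine receptor and JAK-STAT genes 1 rose and 4 fell (3.85% and 15.4%, against 15.6% and 12.4% over all genes), while 2 rose without line D4, 3 rose without line D5, 2 fell without V replicate 1, 2 or 3, 9 fell without line D5, and 10 fell without line D1. Igf1r, the receptor for insulin-like growth factor 1, a myeloma growth factor, was at 605, 560.3, 659.8, 464 and 514 CPM in VQ and 182, 189.7 and 168 CPM in V (log2 fold change 1.72 ± 0.17, adjusted p = 0.000243). The lines were close to each other and far above V, and the call held in every leave-out. Il10rb fell (-1.02 ± 0.19, adjusted p = 0.00445). Il2rg, the shared gamma chain, was at 26.4, 16.4, 3.79, 0.792 and 0.51 CPM in VQ and 58.6, 63.4 and 84.3 CPM in V (-3.03 ± 0.84, adjusted p = 0.0246). Kit, the stem cell factor receptor, fell (-2.39 ± 0.71, adjusted p = 0.0326). Il6ra, Il6st and Stat3, of the interleukin 6 pathway, did not pass. Of 11 bone and vessel factors Tnfsf13b (BAFF) alone passed by edgeR (1 rose without line D1 or D4, 2 fell without D1 recipient 1 or D1 recipient 2, and 3 fell without line D1), while 1 gene was higher at an unadjusted p under 0.05 and by DESeq2. Tnfsf13b was lower, at 1.35, 2.5, 1.54, 1.06 and 0.766 CPM in VQ and 5.96, 7.48 and 11.7 CPM in V (-2.37 ± 0.49, adjusted p = 0.00736). Il2rg was not called without V replicate 1, 2 or 3 or line D4 (adjusted p up to 0.0717). Kit was not called without V replicate 1, 2 or 3, line D1, D1 recipient 2 or D5 recipient 2 (adjusted p up to 0.0949).

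Of 24 Polycomb, DNA methylation and histone methylation genes, 2 rose and 2 fell (8.33% each, against 15.6% and 12.4% over all genes), while 4 rose without line D5, 5 rose without line D4, 0 fell without V replicate 3, 1 fell without V replicate 1, and 5 fell without line D4 or D5. Dnmt3b, a de novo DNA methyltransferase, was at 14.6, 16.6, 20.1, 23.5 and 21.7 CPM in VQ and 5.46, 4.27 and 6.16 CPM in V (1.93 ± 0.35, adjusted p = 0.00393). Dot1l, the H3K79 methyltransferase, rose (0.87 ± 0.19, adjusted p = 0.0088). Cbx7, a Polycomb reader, was at 85.7, 80.9, 102, 27.7 and 28.3 CPM in VQ and 218, 194 and 246 CPM in V (-1.6 ± 0.39, adjusted p = 0.0145), and Ezh1 fell (-0.82 ± 0.23, adjusted p = 0.0256). Nsd2, Dnmt1 and the TET genes did not pass, nor did Ezh2, the Polycomb methyltransferase gene, at 4.85, 1.85, 0.421, 16.4 and 28.8 CPM in VQ and 34.2, 55.5 and 37.3 CPM in V (-2.22 ± 0.95, adjusted p = 0.106). Of 12 oncofetal RNA-binding proteins and let-7 targets, 3 rose and 4 fell (25% and 33.3%, against 15.6% and 12.4%), while 1 rose without V replicate 1 or 2, 1 fell without V replicate 2 or 3, and 2 fell without V replicate 1 or line D1 or D4. Lin28b, which blocks the maturation of let-7 microRNAs in embryonic and tumour cells, was at 77.1, 90.4, 51.2, 3.7 and 6.63 CPM in VQ and 0.993, 0 and 0 CPM in V. It was high in D1 and D4 and low in D5, and was 217-fold higher in VQ over summed counts, with a counting interval of 60 to 1793 and adjusted p = 0.00365. Hmga1, an architectural chromatin protein, rose (1.27 ± 0.39, adjusted p = 0.0367). Igf2bp2, a let-7 target, was at 0.539, 0.977, 1.82, 0.264 and 0 CPM in VQ and 21.8, 8.9 and 8.76 CPM in V (-3.76 ± 0.72, adjusted p = 0.00526). Nr6a1, an orphan nuclear receptor, fell (-1.61 ± 0.53, adjusted p = 0.0453). Cbx7 was not called without V replicate 3 (adjusted p of 0.0522). Ezh1 was not called without V replicate 1 or 3 (adjusted p up to 0.106). Hmga1 was not called without V replicate 1, 2 or 3 or line D5 (adjusted p up to 0.121). Nr6a1 was not called without V replicate 1, 2 or 3, line D1 or D4 or D5 recipient 1 (adjusted p up to 0.141).

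The genes with the largest rises outside the groups above were often high in only some lines. Fam20a, a secretory pathway pseudokinase, was at 185, 126, 57.8, 16.9 and 23.7 CPM in VQ and 0.496, 0 and 0.324 CPM in V. It was 343-fold higher in VQ over summed counts, with a counting interval of 94.9 to 2836 and adjusted p = 0.00405. Uaca was at 1.62, 8.9, 8.69, 313 and 276 CPM in VQ and 0, 0 and 0.324 CPM in V, far higher in D5 than in D1 and D4. It was 689-fold higher in VQ over summed counts, with a counting interval of 124 to 27219 and adjusted p = 0.0116. Eya4, a transcriptional coactivator, was at 1.35, 0.651, 38.4, 114 and 123 CPM in VQ and 0.496, 0 and 0 CPM in V, lowest in D1. It was 341-fold higher in VQ over summed counts, with a counting interval of 61.1 to 13475 and adjusted p = 0.0131. Rec114, a meiotic recombination protein, had 52.0 and 41.0 CPM in D1 but 0.255 to 2.38 CPM in D4 and D5, with no count in V, at least 14.1-fold higher as a mean of lines (adjusted p = 0.0316). Naaladl2 (at least 14.5-fold) had the same order of lines, Lrrc8e, a volume-regulated channel subunit (at least 8.88-fold), was highest in D4, and Mpp3 (at least 7.17-fold) in D5. Uaca was not called without V replicate 3 (adjusted p of 0.061). Rec114 was not called without V replicate 1, 2 or 3 (adjusted p up to 0.0834). Naaladl2 was not called without V replicate 3 (adjusted p of 0.0543). Eya4 was not called without V replicate 1, 2 or 3 (adjusted p up to 0.0587). Mpp3 was not called without V replicate 1, 2 or 3 (adjusted p up to 0.0785).

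Among the largest falls, VQ was at or near 0 in every line. Most of these genes were likewise low in the tVk12653 tumour line, which lacks the Nras allele. Clec2g, Blk, Il9r, Hcrtr2, Serpina3f, Serpina3g, Mgat3 and Fcmr were at 0 in both of its recipients. Trib2 stood at 0.231 and 0 CPM there, Cd79a at 0.463 and 0.726 CPM, Cd200 at 0.463 and 1.09 CPM and P2ry10 at 0 and 2.54 CPM. Clec2g, a C-type lectin, was at 0 in all 5 VQ libraries and 88.3, 75.8 and 118 CPM in V, at least 159.7-fold lower (adjusted p = 7.92e-05). Il9r, the interleukin 9 receptor (at least 20.8-fold), and Hcrtr2, an orexin receptor (at least 15.3-fold), were likewise at 0 in VQ. Serpina3f, a serine protease inhibitor, was 1409-fold lower in VQ over summed counts, with a counting interval of 481 to 6844 and adjusted p = 7.92e-05. Its near-identical neighbour Serpina3g was 1798-fold lower in VQ over summed counts, with a counting interval of 321 to 71152 and adjusted p = 4.52e-05, and reads of these paralogues can be shared. P2ry10, a lysophospholipid receptor of lymphocytes, was 1282-fold lower in VQ over summed counts, with a counting interval of 354 to 10604 and adjusted p = 0.000213. Trib2, a pseudokinase, was 553-fold lower in VQ over summed counts, with a counting interval of 152 to 4587 and adjusted p = 7.92e-05. Mgat3, which adds bisecting sugars to N-glycans, was 565-fold lower in VQ over summed counts, with a counting interval of 100 to 22468 and adjusted p = 0.000535. Fcmr, the IgM Fc receptor, was at 0, 0.217, 0, 0 and 0.51 CPM in VQ and 91.8, 104 and 88.9 CPM in V (-9.08 ± 0.47, adjusted p = 4.52e-05). Serpina3g and Fcmr were also among the 6 genes with the smallest adjusted p under the rule for named genes. All 6 held in each leave-out, which their choice by p in these same libraries favours. Cd69, an activation antigen that retains lymphocytes in tissue, was at 5.39, 0.434, 1.26, 0.792 and 1.28 CPM in VQ and 105, 85.1 and 92.8 CPM in V (-5.98 ± 0.34, adjusted p = 4.52e-05). Itpr1, the calcium release channel of the endoplasmic reticulum, was at 3.23, 1.3, 1.54, 1.85 and 1.28 CPM in VQ and 141, 178 and 275 CPM in V (-6.82 ± 0.43, adjusted p = 4.52e-05). Unc13d, of granule exocytosis, was at 1.89, 1.09, 0.982, 0 and 0.766 CPM in VQ and 46.7, 44.1 and 52.2 CPM in V (-5.6 ± 0.36, adjusted p = 4.52e-05). Rab8b, a vesicle trafficking GTPase, was at 36.1, 32, 32.1, 35.7 and 31.1 CPM in VQ and 150.4, 151 and 171 CPM in V (-2.21 ± 0.14, adjusted p = 4.52e-05), with little spread in either arm.

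The 3 lines differed widely among themselves. In the fit of single libraries 5351 of 12835 genes, 41.7%, differed between D1 and D5 (2568 higher and 2783 lower in D1). The libraries of a line are recipients of a single donor tumour, so the p-values of this fit do not measure spread between tumours. Among genes called higher in VQ, 790 (42.4%) differed between these lines, and among genes called lower 474 (32.2%), shares to be read against that 41.7%. In D1, 358 genes lay over 4-fold above the V mean and 624 lay over 4-fold below it. The numbers were 362 and 741 in D4, and 635 and 860 in D5. Of the pathway lists, the median difference from V ranged most for replication genes (1.52 in D1, 0.40 in D4 and 2.34 in D5), mitosis genes (1.66, 1.02 and 2.84) and NF-kB genes (-0.14, -1.07 and -1.78). It ranged least for the MYC and MAX network (-0.08, -0.12 and -0.07) and the homing list. Among genes that passed without overlap, at a mean of 8 CPM or more in the higher arm and outside the marker lists, Uaca, Eya4, Smpdl3b and Nid2 were named for having the widest ranges over lines, and their values are given as a description. Genes that did not pass had ranges as wide or wider, with Cd74 at 8.24, Ly6d at 8.07 and Mzb1 at 7.13 on the log2 scale. Smpdl3b, a membrane phosphodiesterase, was at 0.809, 1.09, 2.24, 195 and 232 CPM in VQ and 0, 0.712 and 0.649 CPM in V. Nid2, a basement membrane nidogen, was at 4.04, 2.71, 2.52, 243 and 219 CPM in VQ and 0, 1.42 and 1.3 CPM in V. For each, D1 and D4 lay at a few CPM, with D5 far above them. Smpdl3b was not called without V replicate 1, 2 or 3 or line D5 (adjusted p up to 0.202). Nid2 was not called without V replicate 1, 2 or 3 or line D5 (adjusted p up to 0.218). In the opposite direction, Ly6d, a lymphoid surface protein, was at 566, 574, 356, 0 and 0.255 CPM in VQ and 297, 277 and 196 CPM in V, and Ptprc likewise was higher in D1 than in D5 (log2 difference 5.92 ± 0.34, adjusted p = 9.13e-08).

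**Figure D4:**
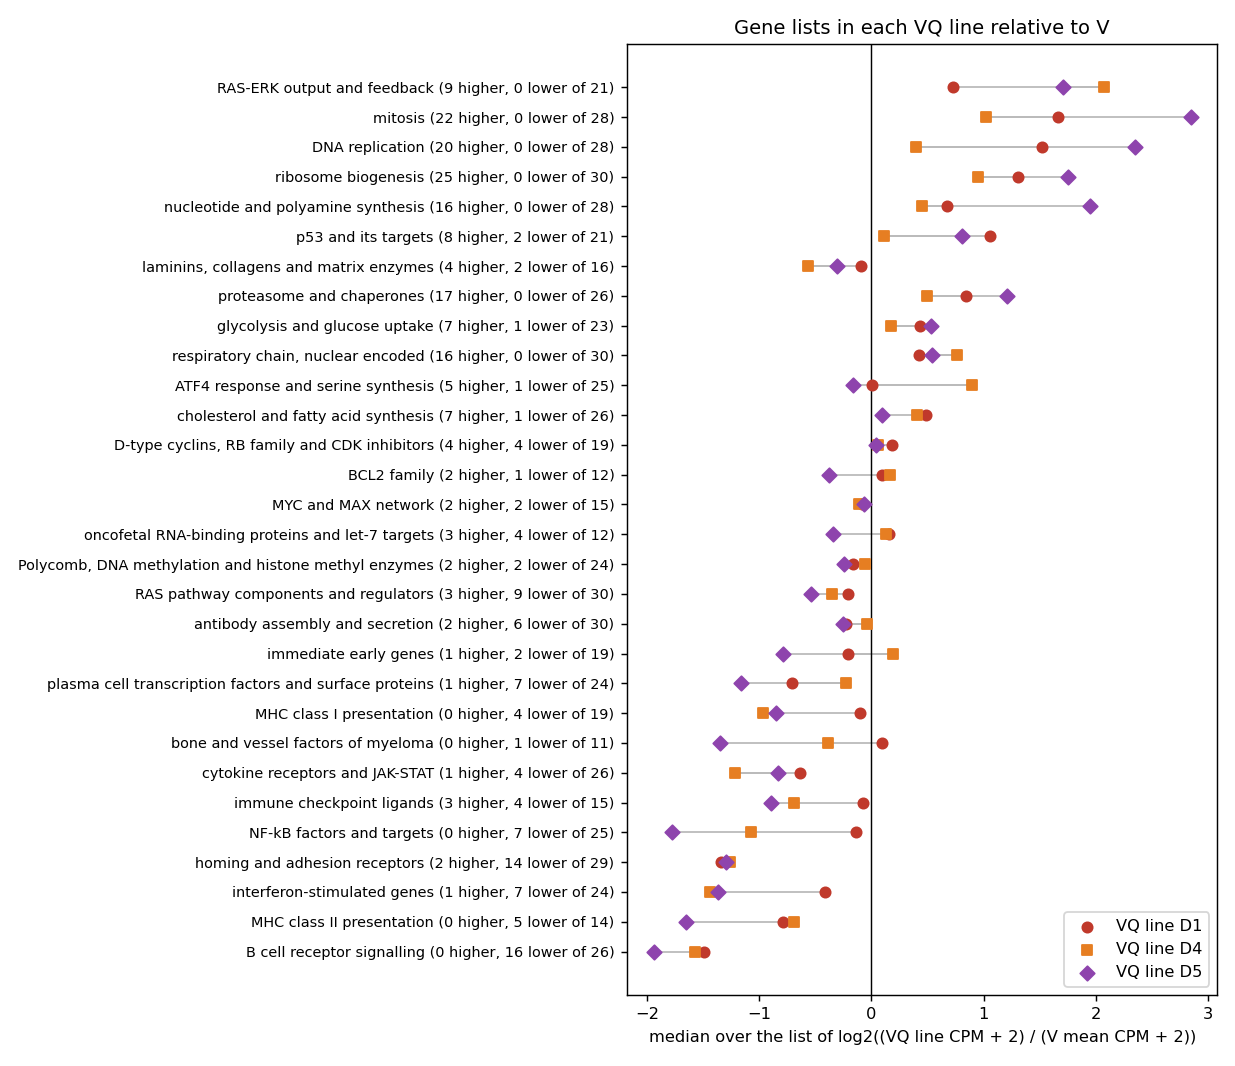
Median over each of the gene lists of the log2 ratio of a VQ line to the V mean (2 CPM added to each), with D1 as circles, D4 as squares and D5 as diamonds. Labels give the genes that passed in VQ against V. Ribosome biogenesis, mitosis and replication lie right of 0 and B cell receptor, homing and class II lists left of 0 in all 3 lines, while NF-kB genes lie near 0 in D1.

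Whole chromosomes were shifted in single lines. For each of 20 chromosomes the median log2 difference from the V mean was taken relative to the median of all genes. Chromosome 5 was at -0.68 in D1 and -0.79 in D4 but 0.08 in D5, and the 4 blocks into which its genes were divided by position were shifted alike in D1 (-0.70 to -0.66) and D4 (-0.85 to -0.69). Chromosome 8 was at -0.67 in D1 alone (-0.01 in D4 and -0.05 in D5), and chromosome 15, which holds Myc, was at 0.61 in D4 alone (0.12 in D1 and 0.15 in D5). Chromosome 3, which holds Nras in the third of its blocks, was at 0.42 in D5 alone, with blocks at 0.36, 0.60, 0.65 and 0.22. Nras itself stood above V by 2.02 (log2) in D5, by 0.73 in D4 and by 0.31 in D1. Recipients of a line had like values (D1 chromosome 5 at -0.67 and -0.70, D5 chromosome 3 at 0.46 and 0.43), and V libraries lay between -0.06 and 0.10 on every chromosome. The first block of chromosome 13 was also raised in D1 (0.49) and D5 (0.95) with D4 at 0.18.

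The shares of genes called differed between chromosomes. On chromosome 5, 21 of 736 genes (2.85%) were called higher in VQ and 168 (22.8%) lower, and on chromosome 15, 113 of 464 (24.4%) were higher and 37 (7.97%) lower, against 15.6% and 12.4% in the whole table. On chromosome 3, 107 of 563 (19.0%) were higher and 59 (10.5%) lower. On chromosome 8, 49 of 640 (7.66%) were higher and 90 (14.1%) lower. In D4, 76.6% of chromosome 5 genes lay below every V library, against 39.1% of all genes, and 69.2% of chromosome 15 genes lay above every V library, against 40.0%. In D1, 69.0% of chromosome 5 and 67.2% of chromosome 8 genes lay below every V library, against 34.8% of all genes. In D5, 49.0% of chromosome 3 genes lay above every V library, against 34.3%. Jchain, Cd38, Kit, Mxd4 and Rasal1 lie on chromosome 5, and Myc, Fkbp11, Cyc1, Cct5, Gtse1, Itgb7, Cbx7, Itga5 and Mgat3 on chromosome 15. With Nras, the named genes on chromosome 3 include Slc16a1, Cct3, Elovl6, Nes, Spry1, Slc7a11 and Naaladl2. Those on chromosome 8 include Tnfsf13b, Itgb1 and Lrrc8e. DNA was not measured in these libraries, and no test was made of chromosome shifts.

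**Figure D5:**
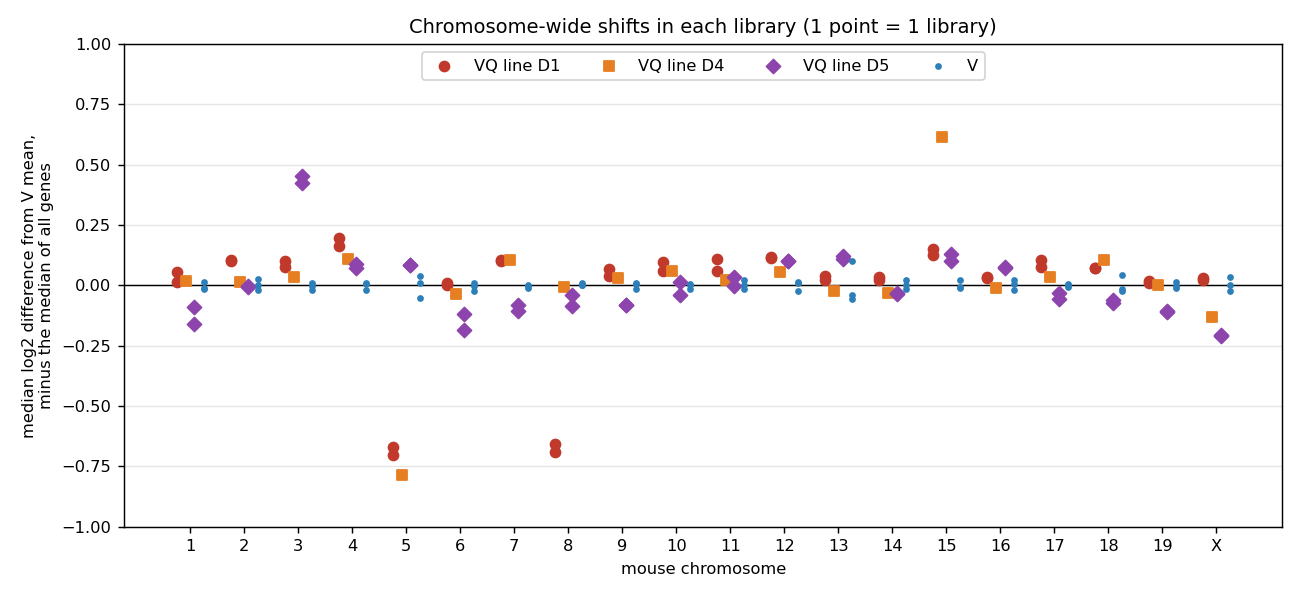
Median log2 difference from the V mean for each chromosome, minus the median of all genes, 1 point per library, the VQ lines left of V at each chromosome. D1 and D4 lie near -0.7 on chromosome 5, D1 near -0.7 on chromosome 8, D4 near 0.6 on chromosome 15 and D5 near 0.4 on chromosome 3, while V libraries lie near 0 throughout.

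The tVk12653 tumour line carries MYC without the Nras allele and was, like VQ, taken from recipients, so it gives a second contrast that shares the VQ libraries with the first. It is a single line with 2 recipients, kept as separate units in the fit, so spread between such tumour lines is not measured. Against it, 712 genes were higher in VQ (5.97%) and 500 lower (4.19%) of 11933. The tVk12653 recipients had chromosome shifts of their own from V, with chromosome 7 at 0.70 and 0.69, chromosome 8 at -0.66 and -0.65 and chromosome 14 at -0.71 and -0.73, and their part in this contrast was not tested. Myc was far lower in VQ than in tVk12653, where it stood at 8006 and 8214 CPM (log2 difference -2.58 ± 0.36, adjusted p = 0.00394), and Nras did not differ by the test (0.79 ± 0.45, adjusted p = 0.269). Genes above both V and tVk12653 with the largest differences were Spry4, Lamb1, Stc2, Nes and Syndig1l. Lamb1 (at least 206-fold), Nes (at least 374-fold) and Syndig1l (at least 40.2-fold) were at 0 in both tVk12653 recipients. Spry4 had 1 count there, a ratio of 733 in summed counts with a counting interval of 131 to 28966. Stc2, the secreted glycoprotein stanniocalcin 2, was at 137, 128, 169, 62.9 and 87.5 CPM in VQ and 1.49, 0.712 and 1.95 CPM in V (6.51 ± 0.73, adjusted p = 0.000507), and at 0.231 and 0 CPM in tVk12653. Nes, the intermediate filament nestin, was at 41.8, 32.7, 166, 747 and 847 CPM in VQ and 0.993, 9.26 and 2.59 CPM in V (6.3 ± 1.24, adjusted p = 0.00759), with D5 highest. Syndig1l was at 43.7, 51.4, 2.66, 53.4 and 61.2 CPM in VQ and 0, 1.07 and 0.324 CPM in V (6.2 ± 1.30, adjusted p = 0.00976), low in D4. Etv4 and Fkbp11 also passed against both (against tVk12653 Fkbp11 by 2.57 ± 0.42, adjusted p = 0.00752), whereas Etv1, at 0 and 0.726 CPM in tVk12653, did not (adjusted p = 0.143). Of other ERK output genes that rose over V, Etv5 passed against tVk12653 too (3.72 ± 0.65, adjusted p = 0.0096). Dusp6 (3.18 ± 0.95, adjusted p = 0.0608) and Epha2 (5.56 ± 1.59, adjusted p = 0.0541) did not. Spry1, at 5.32 and 33 CPM in tVk12653, did not differ by the test (-0.93 ± 1.03, adjusted p = 0.579). Lin28b stood at 56.2 and 65.7 CPM in tVk12653, within the range of the D1 and D4 libraries. Other large rises over V did not pass against tVk12653. Rec114 stood there at 55.5 and 58.8 CPM, Naaladl2 at 19 and 42.1 CPM and Eya4 at 11.1 and 9.43 CPM. Lrrc8e stood at 5.55 and 3.27 CPM, Mpp3 at 2.54 and 6.89 CPM and Uaca at 0.231 and 1.45 CPM. Fam20a, at 0 and 3.27 CPM in tVk12653, passed (5.71 ± 1.39, adjusted p = 0.032).

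Genes below both were Hoxa7, Wipf3, Cdk5rap2, Spns3 and H2-M10.1. Hoxa7, a homeobox transcription factor, was at 0.27, 0, 0, 0.264 and 0.51 CPM in VQ and 13.4, 21.7 and 13.9 CPM in V (-6.51 ± 0.60, adjusted p = 0.000213), and at 65.2 and 78.7 CPM in tVk12653. Cdk5rap2, a centrosome protein, was at 4.04, 0.109, 0.14, 0.264 and 1.02 CPM in VQ and 55.1, 51.3 and 53.8 CPM in V (-6.08 ± 0.46, adjusted p = 0.00011), and at 27.5 and 31.6 CPM in tVk12653 (-5.21 ± 0.47, adjusted p = 0.000315). Wipf3, an actin regulator, was at 0, 0, 4.35, 0.528 and 0.255 CPM in VQ and 79.4, 107 and 81.4 CPM in V (-5.91 ± 0.98, adjusted p = 0.00296), and at 53.4 and 63.1 CPM in tVk12653. Spns3, a transporter of the spinster family, was at 0.809, 0.434, 0, 0 and 0.51 CPM in VQ and 22.3, 19.9 and 27.9 CPM in V (-6.1 ± 0.62, adjusted p = 0.000299), and at 11.1 and 13.1 CPM in tVk12653. H2-M10.1, of a family with close copies, was 226-fold lower in VQ over summed counts, with a counting interval of 76.2 to 1105 and adjusted p = 0.00231, and stood at 459 and 433 CPM in tVk12653. Itgb7 (-2.84 ± 0.50, adjusted p = 0.0096), Rasal1 (-2.39 ± 0.48, adjusted p = 0.0152) and Map3k14 (-6.25 ± 0.27, adjusted p = 6.26e-06) were lower than in tVk12653 as well, Map3k14 with 593 and 523 CPM there. Igf1r (-0.27 ± 0.18, adjusted p = 0.352), Jchain (-2.91 ± 0.92, adjusted p = 0.0715) and the ribosome gene Nhp2 (1.22 ± 0.44, adjusted p = 0.103) did not pass against tVk12653.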

How the data were processed

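RNA of 50000 sorted bone marrow cells per library was extracted with a micro column kit and made into stranded total RNA libraries for picogram input, per the labels' protocols. The values deposited by the authors are whole-number counts of reads for each gene symbol. STAR 2.6.1d and the build GRCm38.p6 are named in the submitters' processing notes, while the sources used here name no counting tool, annotation or strand setting, so overlapping genes and close paralogues may share reads.

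Counts of recipients of a VQ line were summed, giving 11 units over the whole series, in which the tVk12653 recipients were kept as separate units. After filterByExpr (minimum count 10, minimum total 15) 11933 of 22997 genes were fitted with TMM scaling and edgeR 4.0.16 quasi-likelihood tests in R 4.3.3, with Benjamini-Hochberg adjustment at 0.05 (common biological coefficient of variation 0.409). D1 and D5 were compared with all 13 libraries as units. The tests were also run on simulated counts, whose outcome is not reported here. CPM of single libraries uses TMM over 13 libraries, and medians per line use log2 of CPM plus 2. A gene at 0 throughout a group is given as a bound at 3 counts per library, and 1 to 3 counts in all as a ratio of summed counts over library totals with an exact 95% interval that covers counting error alone (chi-square per degree of freedom between replicates 4.97 to 14.5). Named genes were the 12 largest non-overlapping changes per direction, the 6 smallest p, the 4 widest line ranges, up to 4 per list, 5 per direction beyond both V and tVk12653, the leading markers and fixed controls, with 4 E-box genes and further list members chosen after their values were seen. Members and lists were chosen with earlier results of these data known. Alternatives were RLE factors, other filters, DESeq2 1.42.0, other units, a replicate block, a fold threshold and leave-outs. Some items are not reported here.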

Additional observations from a re-analysis of the deposited data

Results flagged for a closer look

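Of Myc, Nras, Sdc1, Ptprc, Xist and Ddx3y, reported whatever their values, 4 differed between the VQ lines themselves by the edgeR test of D1 against D5, so that their differences from V are unequal in these lines. The D1 minus D5 log2 difference was -0.93 for Myc (adjusted p = 0.0123), -1.76 for Nras (adjusted p = 1.5e-06), 1.17 for Sdc1 (adjusted p = 0.00435) and 5.92 for Ptprc (adjusted p = 9.13e-08). In each, the D1 recipients did not overlap the D5 recipients. Recipients of a line share a single donor tumour, so these p-values do not measure spread between tumours. Such differences were common: of 192 named genes that passed in VQ against V, leaving out those named for their range over lines, 98 differed between D1 and D5, 42 higher and 56 lower in D1, beside 41.7% of all genes tested.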

How the results depend on the processing

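The counts of 1865 genes higher and 1474 lower in VQ moved to 738 and 760 with the 2 arms fitted alone, 2991 and 3894 with 13 libraries and 1 mean per group, 2808 and 3609 with a replicate block added to that fit, and 827 and 818 against a fold of 1.5. Leave-outs gave 857 to 2207 higher and 837 to 2053 lower, the lowest without V replicate 3. RLE factors gave 1698 and 1564, DESeq2 2068 and 1954, no low count filter 1509 and 1188, and 13 libraries with 1 mean per arm 2076 and 1844. D1 against D5 stayed within 1.5 times of 2568 and 2783 in its alternatives (1763 to 2042 and 2070 to 2159 in leave-outs, 2567 and 2855 with the replicate block). Same-numbered libraries deviated from their group means with r of -0.054 to 0.0378, and other-numbered ones with r of -0.0654 to 0.0654. In lines of 2 libraries these deviations mirror each other, so they cannot decide whether same-numbered libraries share more than a number. Of 196 named genes that passed, 117 passed in all 10 leave-outs, Syndig1l in the 8 in which it was tested, and 78 were lost in at least 1, and none changed direction under the alternatives. With the 2 arms fitted alone, 125 of these genes kept their call and 60 lost it, the others not being tested there. Against a fold of 1.5, 51 were lost, and with no low count filter 37. RLE factors lost 3 and DESeq2 lost 0. Sign changes were seen for genes that had not passed. With 13 libraries and 1 mean per group these were Mrc1 -0.68, Pecam1 -0.22 and Ly6d -3.0, and with the replicate block Mrc1 -0.78, Pecam1 -0.18, Cxcl12 -0.31 and Ly6d -3.1. Over the leave-outs the log2 fold change ran from -0.67 to 0.88 for Mrc1, from -1.22 to 1.16 for Pecam1, from -0.36 to 1.29 for Cxcl12, from -0.53 to 0.85 for Ly6d, from -0.61 to 0.52 for Itga2b and from -0.61 to 0.17 for Sdc1. The cause was not tested. Depth limits genes under about 1.49 CPM, the 3-count floor of the shallowest V library.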

Other observations

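The wild-type libraries were set against no other group, although they enter the fit and its estimate of spread. In them Cd79a stood at 212, 230.4 and 408 CPM, Clec2g at 48.6, 31.2 and 43.2 CPM, Itpr1 at 119, 202 and 296 CPM and Rab8b at 169, 166 and 152 CPM. The values for genes higher in VQ were 1.06, 0.743 and 0.569 CPM for Lamb1, 3.55, 0.372 and 0.284 CPM for Stc2, 47.5, 26.8 and 22.2 CPM for Psat1 and 195, 166 and 153 CPM for Igf1r. For the growth genes they were 98.2, 92.2 and 72.2 CPM for Nop58 and 173, 177 and 174 CPM for Cct2. Tfrc, the transferrin receptor, which the erythroid list holds and dividing cells also express, was the member of that list that rose, at 105, 163, 79.9, 201 and 241 CPM in VQ and 30.8, 29.2 and 20.1 CPM in V (2.55 ± 0.51, adjusted p = 0.00661), and it stood at 62.4, 166 and 51.8 CPM in wild-type libraries.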
